A study of Mus musculus with 2 samples.

Results

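The Myc, Max and Mxd network is a family of transcription factors, and 10 of its genes (Myc, Mycn, Mycl, Max, Mxd1, Mxd3, Mxd4, Mxi1, Mnt and Mlx) were followed here in mouse embryos at E8.5 (embryonic day 8.5). Members were found by gene symbol, current or older, among the probes of the array: all 10 had a probe of their own, 12 probes in all, out of 18069 genes named by a probe with 1 symbol. Total RNA of the embryo proper was compared between a pool of 45 mDom-/- embryos and a litter-matched pool of 42 wild-type embryos, with 1 array for each pool. mDom is the submitters' name for Ep400, which encodes the ATPase p400 of the TIP60 chromatin-remodelling complex, and the -/- embryos carry the mutation on both copies. The sources used here give neither the kind of mutation nor the strain. There are no replicates, so no value below has a replicate error and no difference was tested. Since each pool is RNA of the embryo proper as a whole, fewer cells of a type and less RNA per cell cannot be told apart.

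All of these proteins bind DNA as pairs through a basic helix-loop-helix leucine zipper. Myc, Mycn and Mycl pair with Max and activate genes of growth and cell division, many of them through the E-box CACGTG. The Mxd proteins, Mxi1 and Mnt pair with Max on the same site and recruit the Sin3 histone deacetylase complex, which represses. Mlx is a Max-like protein that pairs with some Mxd proteins, with Mnt and with the glucose-responsive Mondo factors. Myc recruits TRRAP and the TIP60 complex, of which p400 is a part, to its targets. In the midgestation embryo Mycn is the main family member of neural and mesodermal progenitors, while Myc is also needed for blood and blood vessels.

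Several of these genes carry the network's own binding site next to their start. RefSeq promoter windows of the GRCm38.p6 build, from 250 bases before to 50 after a start, were at hand for 9 of the 10 genes in 11 windows. CACGTG, which reads the same on both strands, lay in the windows of Max, Mlx, Mnt and Mxd4, against 7.15% of all 32851 promoter windows. The sites are shown with 12 bases on each side, 5′ to 3′ on the gene's strand, and the capitals mark CACGTG.
Max: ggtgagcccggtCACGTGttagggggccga
Mlx: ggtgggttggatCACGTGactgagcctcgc
Mnt: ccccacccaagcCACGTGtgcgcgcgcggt
Mxd4: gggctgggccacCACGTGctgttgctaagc
The Max stretch is chr12:76962234-76962263 on the minus strand, and its E-box begins 3 bases before the annotated start. The Mlx stretch is chr11:101087238-101087267 on the plus strand, with the E-box 40 bases before the start. The Mnt stretch is chr11:74830789-74830818 on the plus strand, with the E-box 123 bases before the start. The Mxd4 stretch is chr5:34187912-34187941 on the minus strand, with the E-box 219 bases before the start. A match of letters is a description and not a measured binding site.

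The Mycn window held no E-box but 3 matches to E2F-type sites (the letters TTTGGCG, and counted alike the variant TTTCCCG as well as the variant TTTCGCG, on either strand), a pattern found in 5.58% of all promoter windows. E2F factors switch on genes at the entry to S phase. The 250 bases before the Mycn start, chr12:12941837-12942086 on the minus strand, are shown because they hold these matches, with the matches in capitals.
Mycn: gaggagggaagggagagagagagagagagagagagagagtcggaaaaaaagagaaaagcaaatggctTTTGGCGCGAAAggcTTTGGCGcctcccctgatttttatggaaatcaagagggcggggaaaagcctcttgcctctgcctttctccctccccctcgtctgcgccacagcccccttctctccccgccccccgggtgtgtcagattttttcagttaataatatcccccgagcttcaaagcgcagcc
The matches begin 183, 178 and 168 bases before the start, and the 183 and 178 matches overlap. Mycl, the other member with such a match, had 1 in the bases just after its start.

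Levels are intensities divided by the median of their array. A value at or below the floor, set at 0.541 array medians (the higher 40th percentile of both arrays), was read as too dim to give a level. A probe above the floor on at least 1 array was compared, and where only 1 array was above it the ratio is a bound. Ratios are log2 of mDom-/- over wild-type. The only repeat measurement is that of different probes of the same gene: the SD of a ratio, from 1301 genes with 2 probes above the floor on both arrays, was 0.25 on the log2 scale. It covers error that differs between probes on the same arrays. It does not cover labelling or hybridisation error that the probes share, nor the spread between pools. Both Ep400 probes were below the floor, at -0.0295 and 0.0714 in the mDom-/- pool and 0.215 and 0.470 in the wild-type pool, so the targeted gene could not check the labels. Of 11 markers of the embryo proper 7 were compared, with log2 ratios from -0.22 to 0.27. Markers of visceral endoderm and yolk sac summed to 872.3 array medians in the mDom-/- pool and 680.0 in the wild-type pool, with 5 of 10 compared genes higher and 5 lower. Those of trophoblast and decidua summed to 50.2 in the mDom-/- pool and 49.3 in the wild-type pool over 5 of 10 genes compared. Ratios of 4 of the 5 were above 0, against 49.5% of all compared genes. Markers of primitive red cells summed to 41.1 in the mDom-/- pool and 351.6 in the wild-type pool over 7 of 10 genes compared. Embryonic globin made up most of the gap. Ratios of 6 of the 7 genes were below 0, against 50.5% of all compared genes. Among the 6, Rhag was at -0.01 and Slc4a1 and Gata1 were bounds, while Epb42 was higher at 0.45. With 75th percentile scaling, quantile normalization or loess, 5 of the 7 were below 0. What part these tissues have in the values below was not tested.

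Max, the shared partner without which Myc proteins bind DNA poorly, had the lowest ratio among the 8 members above the floor on both arrays. Its probe read 3.72 in the mDom-/- pool and 5.81 in the wild-type pool, a log2 ratio of -0.64 or 1.56-fold lower. Among 11926 genes above the floor on both arrays, 297 (2.49%) had a ratio as low or lower. Among the genes of like brightness (4 bins of equal size), 5.60% of genes lay as far from 0, and the robust SD of the ratio there was 0.26. At this floor Max was the only member at least 1.5-fold lower (Mxd1, a bound here, was lower than Max with the floor at the 25th percentile), a size reached by 4.35% of all 13136 compared genes, and no member was 1.5-fold higher, against 4.08% of compared genes.

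At the 2-fold rule none of the 9 compared members was higher and none lower, where 0.845% of compared genes were higher and 0.929% lower. Of these 9 members 6 had ratios below 0 and 3 above, against 50.5% of all compared genes below 0. Among the 6 were Mxi1 at -0.01 and the bound of Mxd1. The count below 0 was 4 of 8 with 75th percentile scaling and 5 of 9 with loess or no floor. With the floor at the 60th percentile it was 4 of 6. Over the 8 members above the floor on both arrays the median log2 ratio was -0.19, with 5 below 0, and the median of all such genes was -0.00. With the bound of Mxd1 included the median was -0.01, which is that bound itself.

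**Figure D1:**
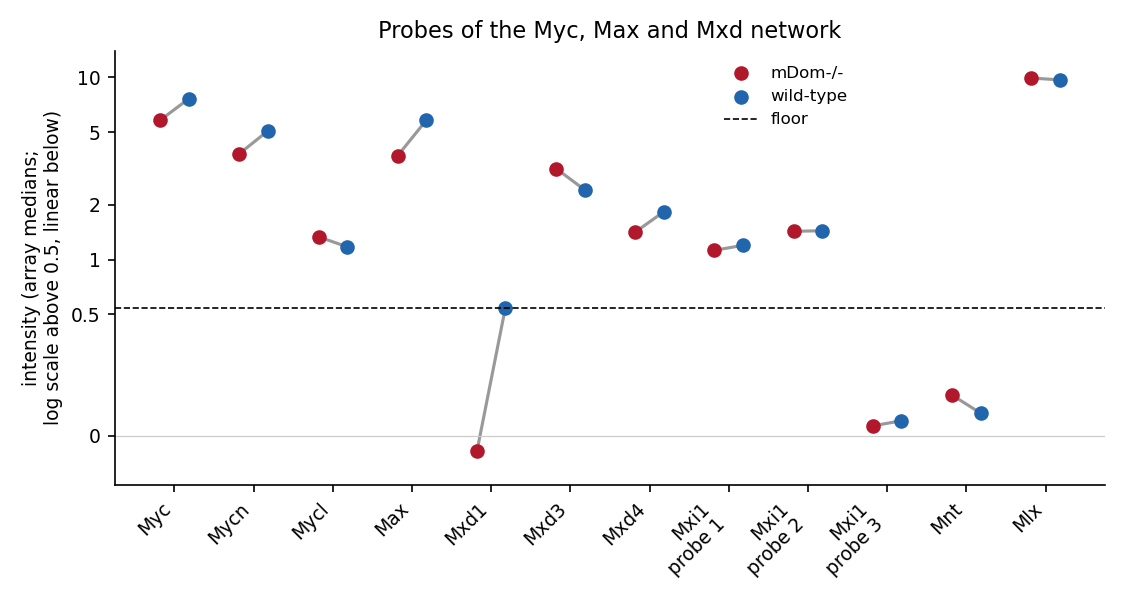
Intensity of each network probe in array medians (vertical axis, logarithmic above 0.5 and linear below) in the mDom-/- pool (red, left) and the wild-type pool (blue, right), 1 array each, with the floor of 0.541 as a dashed line. Max, Myc, Mycn and Mxd4 read lower and Mxd3 higher in the mDom-/- pool, while Mnt and the third Mxi1 probe were below the floor on both arrays.

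Within the Myc family, Myc and Mycn read lower in the mDom-/- pool and Mycl slightly higher. Myc, the best known activator of the family and a cellular oncogene, read 5.82 in the mDom-/- pool and 7.63 in the wild-type pool, a log2 ratio of -0.39 or 1.31-fold lower. Mycn, which drives growth of neural progenitors, read 3.81 in the mDom-/- pool and 5.09 in the wild-type pool, a log2 ratio of -0.42 or 1.33-fold lower. Both were lower by more than the SD between probes of a gene, but so were 17.8% of all genes above the floor on both arrays. Mycl, which mice can lack without overt defects in development, read 1.33 in the mDom-/- pool and 1.18 in the wild-type pool, a log2 ratio of 0.18 that lies within that SD. The ratios of Myc and Mycn were 0.02 apart, far less than the SD of a single ratio.

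Among the partners that oppose Myc, ratios went both ways. Mxd3, the Mxd member known for expression in proliferating cells in S phase, read 3.16 in the mDom-/- pool and 2.42 in the wild-type pool, a log2 ratio of 0.39 or 1.31-fold higher. It was the only member higher by more than the SD between probes, a size reached upwards by 15.9% of all genes. Mxd4, more typical of differentiating cells, read 1.42 in the mDom-/- pool and 1.83 in the wild-type pool, a log2 ratio of -0.37 or 1.29-fold lower. Mxd4 is dim: in its brightness bin 31.5% of genes lay as far from 0, and with the floor at the 60th percentile its log2 ratio was -0.05.

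Mxi1, a repressor that antagonises Myc in many tissues, had 3 probes. The brightest read 1.43 in the mDom-/- pool and 1.44 in the wild-type pool, a log2 ratio of -0.01. A second read 1.12 in the mDom-/- pool and 1.20 in the wild-type pool, a log2 ratio of -0.09, and the remaining probe was below the floor at 0.0415 in the mDom-/- pool and 0.0626 in the wild-type pool. The 2 probes above the floor, both of them dim, thus differed by less than the SD of a single ratio. Mxd1, induced in cells that leave the cycle, was just above the floor in the wild-type pool (0.546) and below it in the mDom-/- pool (-0.0633). Its bound is at least 1.01-fold lower, and it was at least 2-fold lower only with the floor at the 25th percentile, with a log2 ratio of -1.19. Mnt, the most widely expressed of the Max-bound repressors, was below the floor in both pools, at 0.168 in the mDom-/- pool and 0.0940 in the wild-type pool, so no fold is given.

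Mlx was nearly equal in both pools, at 9.92 in the mDom-/- pool and 9.69 in the wild-type pool, a log2 ratio of 0.03. Its Mondo partners Mlxip and Mlxipl, glucose-responsive activators, had log2 ratios of -0.02 and -0.05, and Mga, a Max partner that also has a T-box, had -0.04. Mlx and Max, which hold the same place in their branches, were therefore 0.68 apart on the log2 scale. The SD of 0.25 between probes is that of a single ratio. A difference of ratios has a wider spread, so that SD does not size the gap, which was not tested.

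**Figure D2:**
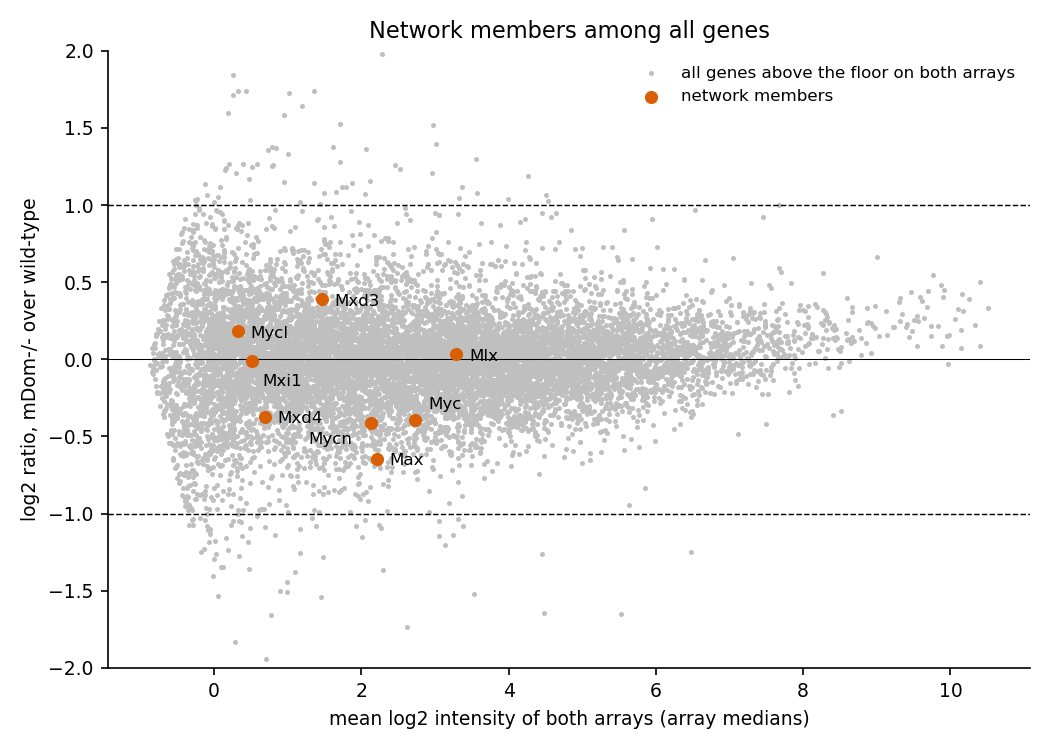
Log2 ratio of mDom-/- over wild-type (vertical axis) against mean log2 intensity (horizontal axis) for genes above the floor on both arrays (grey) and 8 network members (orange), with 2-fold marked by dashed lines; 6 genes beyond the vertical axis are not drawn. The members lie between -0.64 (Max) and 0.39 (Mxd3), all inside the dashed lines.

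**Figure D3:**
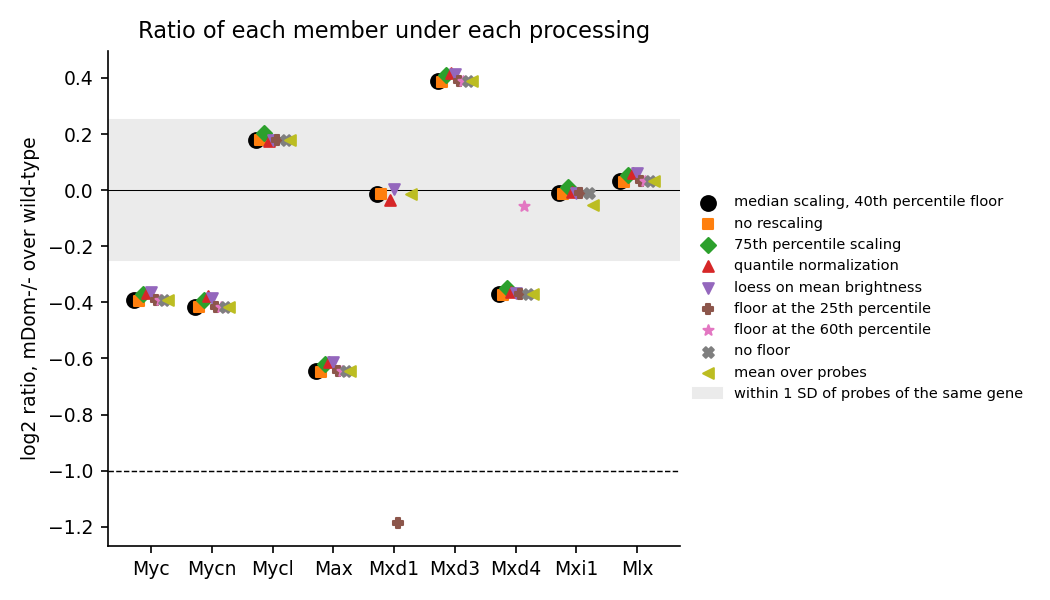
Log2 ratio of mDom-/- over wild-type for each compared member under each processing (symbols), with a grey band of 1 SD between probes of the same gene and 2-fold lower as a dashed line. Max, Myc and Mycn lie below the band and Mxd3 above it under every processing drawn, while Mxd4 and Mxd1 depend on the floor.

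Genes known to be induced by Myc were looked at in 2 lists drawn up from general knowledge. Earlier results of these data were known when these and the other lists were chosen, so the choice was not blind. Of 28 compared nucleolar genes, which make and assemble ribosomes, 19 had ratios below 0 and 9 above. Among all compared genes 50.5% were below 0. The median log2 ratio of the nucleolar list was -0.09. In that list 10 genes were lower and 2 higher by more than the SD between probes, against 17.8% lower and 15.9% higher among all genes above the floor on both arrays. Rrs1, a ribosome assembly factor, read 0.873 in the mDom-/- pool and 1.94 in the wild-type pool, 2.22-fold lower, and Nolc1, a nucleolar phosphoprotein gene, read 0.829 in the mDom-/- pool and 1.72 in the wild-type pool, 2.07-fold lower. These were the list's only genes past the 2-fold rule. Both are dim: with the floor at the 60th percentile Rrs1 had a log2 ratio of -0.13 and Nolc1 was not compared. The highest were Nip7, a factor of 60S subunit assembly, with a log2 ratio of 0.31, and the snoRNP protein gene Nop56 with 0.26, which were 0.20 and 0.13 with loess.

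Growth and metabolism genes induced by Myc had a median log2 ratio of -0.13, with 18 of 28 compared genes below 0 and 10 above, against 50.5% of all compared genes below 0. By more than the SD between probes, 8 were lower and 3 higher, against 17.8% and 15.9% of all genes above the floor on both arrays. Summed intensities ran against the medians, but the brightest genes weigh most in a sum. The nucleolar list summed to 1538.7 array medians in the mDom-/- pool and 1487.5 in the wild-type pool. Its brightest gene, Ncl, read 374.5 in the mDom-/- pool and 327.5 in the wild-type pool. A second Ncl probe had a log2 ratio of -0.29. The growth and metabolism list summed to 2392.3 in the mDom-/- pool and 2243.3 in the wild-type pool. Its brightest gene, Ldha, read 791.9 in the mDom-/- pool and 663.2 in the wild-type pool. Pkm, the pyruvate kinase of growing cells, read 7.20 in the mDom-/- pool and 15.2 in the wild-type pool, 2.12-fold lower, and was the only one past the 2-fold rule. Prmt5, an arginine methyltransferase gene, read 3.61 in the mDom-/- pool and 7.15 in the wild-type pool, 1.98-fold lower. By the brightest probe of each gene, Umps, which makes uridine monophosphate, had the highest log2 ratio at 0.75, but its second probe had 0.06. A second probe of Phb had 0.86, against 0.17 for its brightest. The glucose transporter gene Slc2a1 had 0.26, and 0.15 with quantile normalization.

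Genes known to be repressed by Myc had a median log2 ratio of 0.30, with 5 of 7 compared genes above 0, against 49.5% of all compared genes. With quantile normalization the median was 0.13 and 4 of 7 were above 0, and with loess the median was 0.10. The cell cycle inhibitor gene Cdkn1a read 2.84 in the mDom-/- pool and 1.88 in the wild-type pool, a log2 ratio of 0.59, and the stress gene Gadd45a read 23.1 in the mDom-/- pool and 16.5 in the wild-type pool, a log2 ratio of 0.49. Both are also targets of p53. Ndrg1 and Pdgfrb lay below 0, at -0.23 (its second probe -0.05) and -0.14. No gene of this list was past the 2-fold rule.

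No coactivator or corepressor of the network was at least 2-fold apart. Over 14 compared coactivators and partners of Myc the median log2 ratio was -0.09. Below 0 were 9 of the 14, against 50.5% of all compared genes, and Ep300 was a bound. The lowest were Actl6a, an actin-related subunit of the TIP60 and BAF complexes, with -0.47, and Zbtb17, which encodes the Miz-1 protein through which Myc represses, with -0.46. The highest were Dmap1 and Bptf, subunits of TIP60 and NURF, both with 0.17. Zbtb17 is dim and was not compared with the floor at the 60th percentile. Corepressors of the Mxd proteins and Mnt had a median of 0.03 over 13 compared genes, with Ing1, which encodes a histone reader of the Sin3 complex, at 0.48, Ing2 at 0.26 (its second probe -0.03), the deacetylase gene Hdac2 at -0.36 and Arid4a at -0.35. The sign of that median turned with quantile normalization (-0.01) and loess (-0.04).

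For 7 compared targets of Mlx and the Mondo factors the median log2 ratio was -0.09. Below 0 were 4 of these targets, against 50.5% of all compared genes. Txnip, the best known of them and a brake on glucose uptake, read 24.4 in the mDom-/- pool and 28.6 in the wild-type pool, a log2 ratio of -0.23, and its second probe had -0.52. Its relative Arrdc4 had 0.28, the fatty acid synthase gene Fasn -0.43 and G6pc 0.31. G6pc is dim and was not compared with the floor at the 60th percentile. None was past the 2-fold rule.

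**Figure D4:**
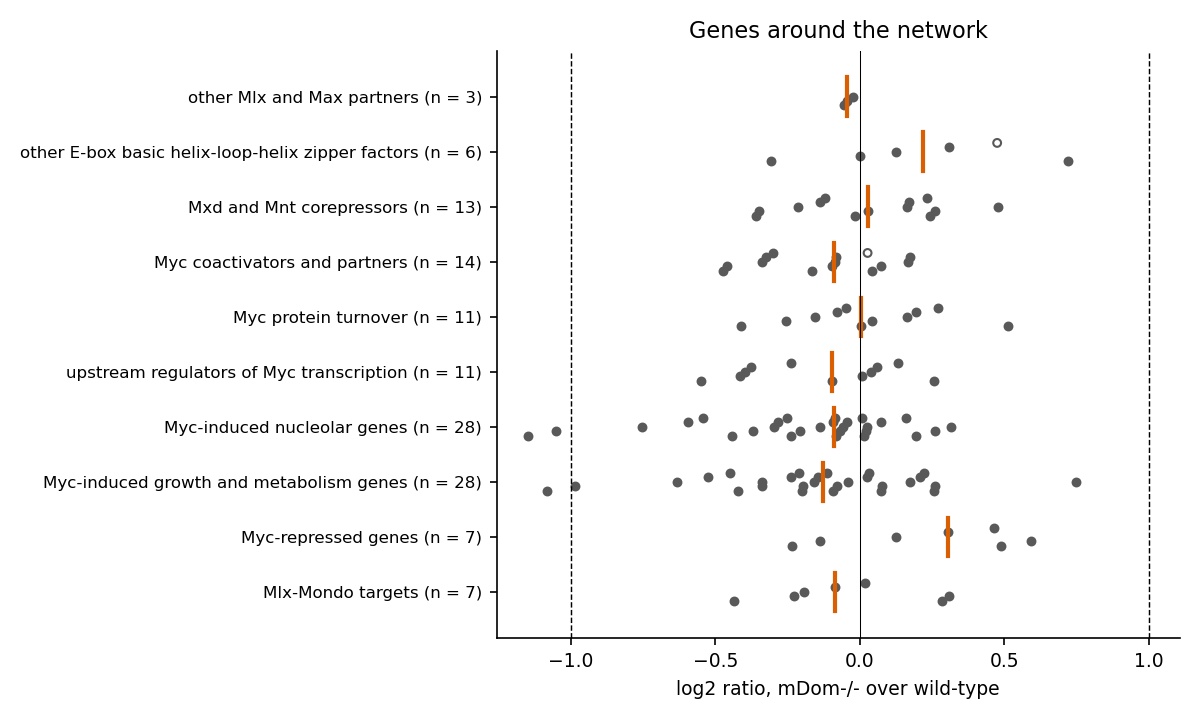
Log2 ratio of mDom-/- over wild-type (horizontal axis) for the compared genes of each list around the network (points; open where only 1 array was above the floor), with the list median in orange and 2-fold marked by dashed lines. Both Myc-induced lists have medians below 0 (-0.09 and -0.13) and the Myc-repressed list has one above 0 (0.30), with most genes within 2-fold.

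Promoters with CACGTG were compared with all others over the 9598 genes that were above the floor on both arrays and had a promoter window (80.5% of 11926). The median log2 ratio was -0.03 for the 1077 genes with CACGTG and 0.00 for the 8521 without, and 55.6% of genes with CACGTG and 49.3% of those without had ratios below 0. In each of the 4 brightness bins the median was lower with CACGTG, from -0.07 to 0.02, than without, from -0.02 to 0.04. The difference of medians was -0.04. The SD of 0.25 between probes of a gene describes the ratio of a single gene. It gives no error for a median over many genes, so it cannot size this difference, which was not tested. Of the Myc-induced genes with a window, 24.0% of nucleolar and 26.9% of growth and metabolism genes held CACGTG, against 11.2% of all genes measured on both arrays with a window. With CACGTG the nucleolar genes had a median of -0.23 (6 genes) and without it -0.08 (19 genes), whereas for the growth and metabolism genes it was 0.03 (7 genes) and -0.14 (19 genes).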

How the data were processed

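The deposited table holds 1 linear intensity per spot for each array. Per the labels, RNA was labelled with biotin-UTP for CodeLink Expression Bioarrays and images were read with CodeLink System Software. The sources used here give no version, background correction, scaling or detection flag. Both columns had a median of 1.05. Whether the deposited intensities had been scaled to their median is read from this alone and is not settled. The code -9999, in 106 mDom-/- and 105 wild-type probes of 36227, was read as no value. Of the probes, 21615 had 1 gene symbol in the platform annotation, and 21487 of these matched RefSeq (GRCm38.p6) by Entrez identifier, used for current symbols.

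Each array was divided by its median and raised to the floor, and the log2 ratio was taken (Python 3.11.15, numpy 2.4.6, pandas 2.3.3, statsmodels 0.14.6). The probe that was brightest on average stood for its gene. The steps were tested on simulated data, with planted changes larger than that of any member, in genes well above the floor. Recovery of small ratios or of dim genes was not tested. The number of arrays limits the precision. Named were every member and, in each list, genes at least 2-fold apart and the 2 highest and 2 lowest ratios above the floor on both arrays. Ncl and Ldha were named as well, as the brightest genes of the Myc-induced lists. Tfec, Ep300, Slc4a1 and Gata1 were named as bounds, and Phb and Fbxo28 for a second probe far from the brightest. A pair of arrays gives no pattern by which to name genes of like behaviour. Members, lists and floor were chosen with earlier results of these data known. Alternatives were no rescaling, 75th percentile scaling, quantile normalization, loess (span 0.3), other floors, the mean over probes and size rules of 1.5-fold and 3-fold.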

Additional observations from a re-analysis of the deposited data

How the results depend on the processing

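With 1 array per pool, differences between pools and hybridisations cannot be separated from the genotype, and dim probes are limited by the floor. No paired analysis was possible because each group has 1 array. The log2 ratios of Max, Myc and Mycn stayed between -0.65 and -0.61, -0.39 and -0.36, and -0.42 and -0.38 under all 8 scaling, floor and probe alternatives, and that of Mxd3 between 0.39 and 0.42. Much of this was fixed in advance. Each of these genes has 1 probe, above every floor on both arrays, so floors and the mean over probes could not move it. No rescaling and 75th percentile scaling shift such ratios all alike. Only quantile normalization and loess could move these genes against others. That of Mxd4 ranged from -0.37 to -0.05. That of Mxi1 was above 0 with 75th percentile scaling only (0.01), and the bound of Mxd1 was above 0 with loess only (0.01). Mxd1 was not compared with 75th percentile scaling, the floor at the 60th percentile or no floor, and Mxi1 and Mycl not with the floor at the 60th percentile. Mnt, below the floor in both pools, was compared with no floor only, at a log2 ratio of 0.84. With the floor at the 25th percentile 1 member (Mxd1) was at least 2-fold lower and the members' median was -0.37. The 1.5-fold rule called 1 member lower (Max). Genes past the size rule numbered 533 higher and 522 lower with the floor at the 25th percentile, 38 and 28 at the 60th, 1200 and 1129 with no floor, 536 and 571 at 1.5-fold and 22 and 23 at 3-fold, against 111 and 122. The medians of the Myc-induced lists ranged from -0.14 to -0.07 and from -0.16 to -0.11, and that of the Myc-repressed list from 0.10 to 0.40. Why values moved was not tested beyond the floor's own construction, which bounds dim values.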

Other observations

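Other basic helix-loop-helix factors that bind the E-box, not all with a leucine zipper, were compared for 6 genes. Their median log2 ratio was 0.22. Above 0 were 5 genes, among them Tfec, a bound, and Usf2 at 0.00, against 49.5% of all compared genes. The median was 0.13 over the 5 genes above the floor on both arrays and 0.00 with the floor at the 60th percentile. Tcfl5, a helix-loop-helix gene known for its part in the testis, read 40.8 in the mDom-/- pool and 24.8 in the wild-type pool, 1.65-fold higher. Mitf, of pigment cells and the eye, had a log2 ratio of 0.31. Srebf2, of cholesterol synthesis, had -0.31, as did its second probe. Usf2 is widely expressed.

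Genes known to control transcription of Myc had a median of -0.10 over 11 compared genes. Below 0 were 6 of the 11, against 50.5% of all compared genes. The receptor gene Notch1 read 4.60 in the mDom-/- pool and 6.73 in the wild-type pool, a log2 ratio of -0.55, and Hnrnpk, whose protein binds the Myc promoter, had -0.41. Lef1, a Wnt pathway factor gene, had 0.26 (second probe 0.18), and Nme2 had 0.13, but -0.04 with quantile normalization and -0.06 with loess. Genes that set the stability of Myc proteins had a median of 0.00 over 11 compared genes. Among them Aurka, a mitotic kinase gene whose product stabilises N-Myc, had -0.41 (second probe -0.01), Axin1 -0.26, Usp37 0.27 (dim, and not compared with the floor at the 60th percentile) and the phosphatase subunit gene Ppp2r5a 0.51. In the stability list a second probe of Fbxo28 had -0.74, against -0.05 for its brightest. By the brightest probe no gene of these lists was at least 2-fold apart.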
